A study of Mus musculus with 20 samples.

Results

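The genes described here are 10 genes of cholesterol efflux and of the liver X receptor (LXR), followed in the epididymal white adipose tissue (eWAT) of chow-fed, high-fat-fed and alkaloid-treated mice. They are Abca1, Abcg1, Apoe, Nr1h3, Soat1, Npc1, Npc2, Mylip, Scarb1 and Pltp. They were chosen by name, and 10 of 10 were found among the 14776 genes of the deposited table through their Ensembl identifiers. The tissue came from 20 male C57BL/6J mice that were 6 weeks old when feeding started and were fasted overnight before sampling. The 6 normal control (NC) mice ate maintenance feed. The 7 HFD mice ate a diet in which fat gave 60% of the energy, for 14 weeks and then for another 6 weeks with saline given into the stomach. The 7 SZ-A mice ate the same diet for the same time and received Ramulus Mori (Sangzhi) alkaloids, an extract of mulberry twig, at 400 mg per kg each day into the stomach during the last 6 weeks. Whether the NC mice were also dosed with saline is not spelled out in the sources used here. Each value is an FPKM, a count of sequenced fragments scaled to gene length and to a size set for each library.

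Cells cannot break down the sterol ring, so surplus cholesterol is stored as an ester or exported. Cholesterol taken up in lipoproteins leaves the lysosome through NPC2 and NPC1, is esterified at the endoplasmic reticulum by SOAT1, or is passed by ABCA1 and ABCG1 to apolipoproteins such as APOE and to high-density lipoprotein. LXRα, the product of Nr1h3, is a nuclear receptor switched on by oxidised sterols, and Abca1, Abcg1, Apoe, Pltp, Mylip and Nr1h3 itself are known targets of it in macrophages or adipocytes. In obese fat, macrophages that take up lipid from dying adipocytes are a known site of this pathway.

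LXR and its partner RXR bind as a pair to a direct repeat of the half-site AGGTCA with a spacer of 4 bases. The 250 bases before the transcription start were read for the members from RefSeq (GRCm38.p6). A window was held for 7 of the 10 members, namely Soat1, Nr1h3, Pltp, Abca1, Apoe, Npc2 and Mylip, and the windows of the 3 of them that SZ-A lowered against HFD are shown, each 5′ to 3′ on the strand of its gene.

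Abca1: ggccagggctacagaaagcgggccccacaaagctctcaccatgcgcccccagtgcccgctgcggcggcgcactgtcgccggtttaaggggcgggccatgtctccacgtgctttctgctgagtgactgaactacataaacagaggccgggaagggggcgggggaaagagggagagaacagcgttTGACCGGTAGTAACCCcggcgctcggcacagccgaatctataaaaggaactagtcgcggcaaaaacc

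Pltp: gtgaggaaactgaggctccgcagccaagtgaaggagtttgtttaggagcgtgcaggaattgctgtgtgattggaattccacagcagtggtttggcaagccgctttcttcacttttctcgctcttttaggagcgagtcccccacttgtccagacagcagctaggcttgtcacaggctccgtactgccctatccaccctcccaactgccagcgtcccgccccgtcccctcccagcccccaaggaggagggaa

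Soat1: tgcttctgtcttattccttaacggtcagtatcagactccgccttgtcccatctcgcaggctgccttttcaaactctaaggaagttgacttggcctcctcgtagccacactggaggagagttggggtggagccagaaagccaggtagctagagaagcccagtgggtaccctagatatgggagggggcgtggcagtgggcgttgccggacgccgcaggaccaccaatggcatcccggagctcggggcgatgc

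The Abca1 window lies at chr4:53159896-53160145, the Pltp window at chr2:164857709-164857958 and the Soat1 window at chr1:156474329-156474578, each on the minus strand. The capitals in the Abca1 window mark a match to the LXR repeat that reads GGGTTACTACCGGTCA on the opposite strand, with 3 mismatches in the fixed letters, at positions -67 to -52, where -1 is the base before the start. With at most 2 mismatches the repeat was in the window of no member and in 2.57% of 32851 RefSeq windows. The limit of 3 mismatches was chosen after the windows had been seen. At that limit 18.5% of all windows held a match, so such a match is common, and among the members with a window it was found for Abca1 alone. On both strands, none of the members' windows held TCACNCCAC, a sterol regulatory element bound by SREBP, TCACGTGA, an E-box of the kind bound by TFEB, or GAGGAAGT, a core bound by PU.1, which were in 1.05%, 0.785% and 2.44% of all windows. The 4 motifs are different strings that can overlap in a window, and their absence says only that these letters are not in it.

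The reads recovered from the FPKM values numbered from 13567667 to 19388628 per mouse, and the least covered member, Pltp in a single NC mouse, still had 104 reads. Mitochondrial genes held 3.30% to 8.34% of NC reads, 1.67% to 2.92% of HFD reads and 1.67% to 11.6% of SZ-A reads. One NC library went against its tissue label: NC 6 had 26.6 FPKM of Adipoq, 1.17 of Lep and 3.59 of Plin1, which define adipocytes, against 859 to 2278 FPKM of Adipoq in the other 5 NC mice. Its 12 adipocyte markers summed to 313 FPKM, while the median NC mouse had 6780.3. NC 6 was also high in Adgrg2 (420.4 FPKM) and Clu (3119 FPKM), genes known from the epididymis, the organ that this fat pad lies on. NC 1 had the highest Cd52 (4551 FPKM), another gene abundant in epididymis as well as in lymphocytes, and 755 FPKM of Clu. It had the lowest Adgrg2 of the NC mice (5.69 FPKM), and NC 6 had 259 FPKM of Cd52, so these mice were not alike in these genes. NC 2, which was kept, had 2164 FPKM of Cd52. The members' values against NC are therefore also given without NC 6, or without NC 1 and NC 6, where that moved them, as are the counts of each gene list, a choice made after seeing the data.

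By level, Apoe was above the other members in every mouse except NC 6, with group means of 1607 FPKM for NC, 1623 for HFD and 1830.4 for SZ-A. In HFD, the order of means was Apoe, Pltp, Npc2, Abcg1, Abca1, Nr1h3, Soat1, Mylip, Scarb1 and Npc1. Apoe exceeded Pltp, Pltp exceeded Npc2 and Npc2 exceeded Abcg1 with no overlap of their ranges over 7 mice. From Abcg1 downwards the range of each neighbour overlapped the next. Within single HFD mice, Abcg1 was still above Abca1, and Mylip above Scarb1, in 7 of 7. Nr1h3 was above Soat1 in 6 of 7, and Soat1 above Mylip in 4 of 7. Abca1 and Nr1h3 (41.4 and 40.5 FPKM) or Scarb1 and Npc1 (18.2 and 16.8 FPKM) did not differ beyond their spread, the first being higher in 4 of 7 mice. In NC, Npc2 and then Pltp followed Apoe, and from Pltp to Soat1, which was last, neighbours overlapped. In SZ-A, Npc2 (269 FPKM) and Pltp (191 FPKM) overlapped, and Npc1 (7.57 FPKM) was last. FPKM is scaled to gene length, here that of all annotated exons of a gene together, which need not be the length of the transcripts present. Pltp also shares 19.3% of its exon bases with another gene, described below. The order between genes is therefore approximate.

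**Figure D1:**
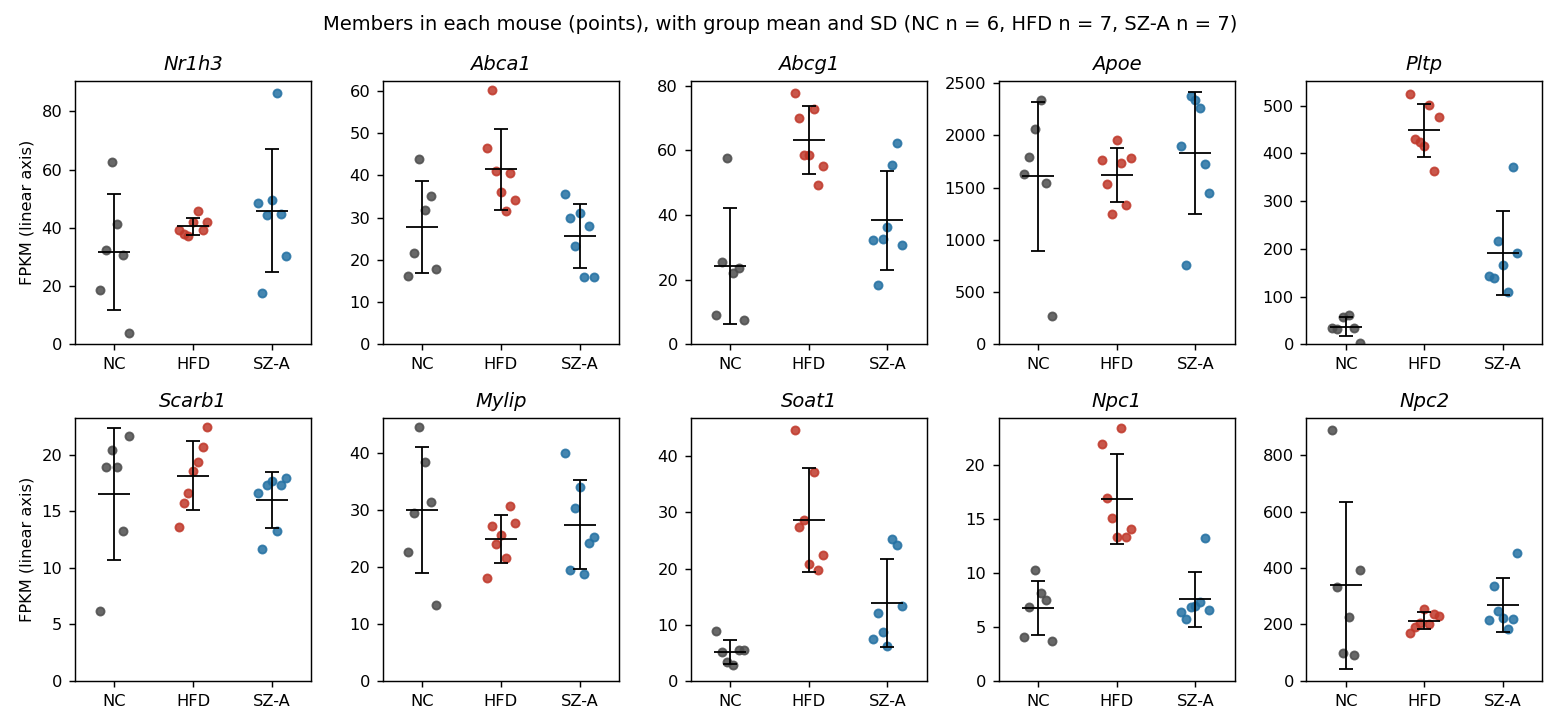
FPKM of the 10 members in each mouse (points; linear axes that start at 0) with the group mean and SD, for NC (n = 6), HFD (n = 7) and SZ-A (n = 7). Pltp, Soat1 and Npc1 in HFD lie above every NC mouse, whereas Apoe, Nr1h3, Mylip, Scarb1 and Npc2 overlap in all groups, with NC 6 at the bottom for Apoe (273 FPKM) and Nr1h3 (3.77 FPKM) and NC 1 at the top for Npc2 (890.3 FPKM).

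The first comparison, HFD against NC, asks what the diet does. Pltp (lipid transfer), Soat1 (cholesterol esterification), the pump genes Abcg1 and Abca1, and Npc1 (lysosomal export) were higher with the diet, while Nr1h3, Apoe, Scarb1, Mylip and Npc2, the other lysosomal export gene, did not pass the test. Of the 10 members, 5 were higher at an adjusted p under 0.05 (limma on log2(FPKM + 1), Benjamini-Hochberg over all genes tested) and 0 were lower. Over all 14706 genes tested, 41.1% passed in either direction, 21% higher and 20.1% lower, so a count of 5 of 10 is not far from what the whole table gave. A log2 fold change above 1.5 as well, the limit in the study's methods, was reached by Pltp, Soat1 and Abcg1 and by 7.97% of all genes in either direction. The median log2 fold change was 0.66 over the members and -0.04 over all genes.

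Pltp, the phospholipid transfer protein that remodels HDL and feeds lipid to efflux, changed most. It ranged from 2.79 FPKM through a median of 34.5 to 60.3 in NC and from 364 through 431 to 525.5 in HFD. Every HFD mouse was thus above every NC mouse. The HFD mean was 12.2 times the NC mean, and the log2 fold change was 3.96 with an SE of 0.51 (adjusted p = 4.8e-05 by limma). Without NC 6, the lowest mouse, it was 3.37. In the annotation (GENCODE M21), 19.3% of the 2562 exon bases of Pltp are shared with Ctsa, the gene of cathepsin A on the opposite strand. No strand setting is given in the sources used here, so fragments in those bases cannot be told apart. Ctsa rose from 28.6 ± 7.59 to 173 ± 41.4 FPKM (SD, n = 6 and 7; log2 fold change 2.57 ± 0.21 SE, adjusted p = 6.1e-07 by limma).

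Soat1, which makes cholesteryl esters for storage, ran from 2.78 FPKM through 5.32 to 8.81 in NC and from 19.7 through 27.4 to 44.8 in HFD, again with no overlap. Its log2 fold change was 2.28 with an SE of 0.24 (adjusted p = 7.3e-06 by limma), and the HFD mean was 5.54 times the NC mean. Without NC 1 and NC 6 the log2 fold change was 2.504. Npc1, the membrane protein through which cholesterol leaves the lysosome, went from 3.65, 7.18 and 10.3 FPKM (lowest, median and highest NC mouse) to 13.3, 15.1 and 23.4 in HFD. The groups did not overlap, and the log2 fold change was 1.24 with an SE of 0.22 (adjusted p = 5.5e-04 by limma), or 0.94 without NC 1 and NC 6. Non-overlap in either direction held for 3 members, Pltp, Soat1 and Npc1, and for 20.5% of all genes tested.

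Of the export pumps, Abcg1, which loads cholesterol onto HDL, had 7.49, 22.8 and 57.7 FPKM as lowest, median and highest value in NC and 49.3, 58.6 and 77.9 in HFD. A single NC mouse, NC 3 with 57.7 FPKM, reached into the HFD range. The log2 fold change was 1.63 with an SE of 0.36 (adjusted p = 0.0030 by limma), and without NC 1 and NC 6, the 2 lowest NC mice, it was 1.05, still past the threshold (adjusted p = 0.0029 by limma). Abca1, which loads cholesterol and phospholipid onto lipid-poor apolipoproteins, had 16.2, 26.7 and 43.7 FPKM in NC and 31.5, 40.6 and 60.1 in HFD, with wide overlap. Its log2 fold change of 0.62 with an SE of 0.23 passed narrowly (adjusted p = 0.046 by limma). Leaving out single mice ended that call in 9 of 13 fits, and without NC 1 and NC 6 the value was 0.33 (adjusted p = 0.20 by limma).

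**Figure D2:**
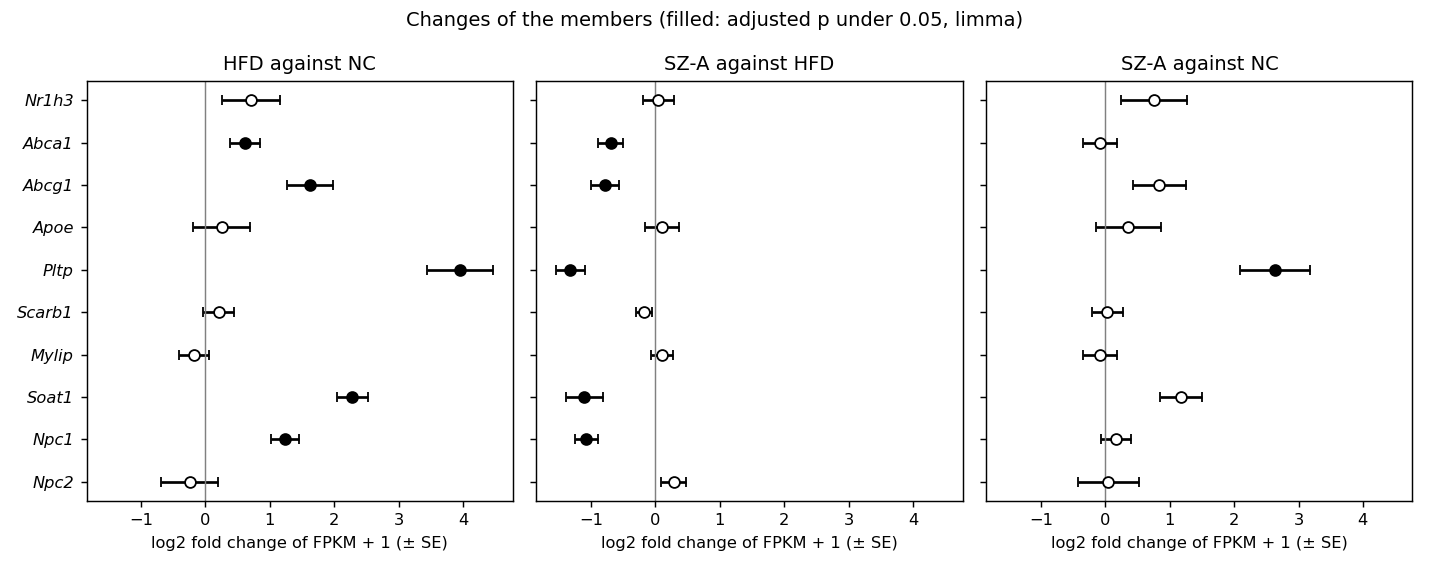
Log2 fold change of FPKM + 1 with its SE for each member in HFD against NC, SZ-A against HFD and SZ-A against NC; filled circles have an adjusted p under 0.05 by limma. The same 5 members, Pltp, Soat1, Npc1, Abcg1 and Abca1, are filled to the right of 0 in the first panel and to the left of 0 in the second, which uses the same HFD mice, and Pltp alone is filled in the third (2.64).

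The other 5 members did not pass in HFD against NC. Nr1h3, the receptor gene, had 3.77, 31.6 and 62.5 FPKM in NC and 37.2, 39.4 and 45.9 in HFD. NC mice lay on both sides of a narrow HFD range, and the log2 fold change was 0.71 (SE 0.45, adjusted p = 0.22 by limma), or 0.22 without NC 6. Apoe had a log2 fold change of 0.25 (SE 0.45), and of -0.21 without NC 6, which had 273 FPKM where the other NC mice had 1547 to 2336. Scarb1, the HDL receptor that takes up cholesteryl ester, stood at 0.20 (SE 0.24), and at -0.03 without NC 1. Mylip, a ubiquitin ligase induced by LXR, stood at -0.18 (SE 0.23). Without NC 1 and NC 6 its value was -0.51 and passed the threshold (adjusted p = 0.018 by limma).

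Npc2, the soluble lysosomal partner of NPC1 and also a major secretory protein of the epididymis, spread most among NC mice. Its NC values ran from 93.3 through 279 to 890.3 FPKM, while the HFD mice lay between 168 and 256, inside that range. The log2 fold change was -0.24 with an SE of 0.44, and 0.38 (adjusted p = 0.34 by limma) without NC 1 and NC 6. The 5 mice with the highest Npc2, NC 1, SZ-A 7, NC 6, SZ-A 2 and NC 2 (333 FPKM and above), were also the 5 with the highest summed FPKM of Adgrg2, Aqp9, Clu and Cd52. That sum ran from 1797 to 5362 in those 5 mice and from 48.0 to 752 in the others. These 4 genes were picked after their values were seen, and their part in the Npc2 values was not tested. None of the 15 epididymis genes listed as markers was analysed here.

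**Figure D3:**
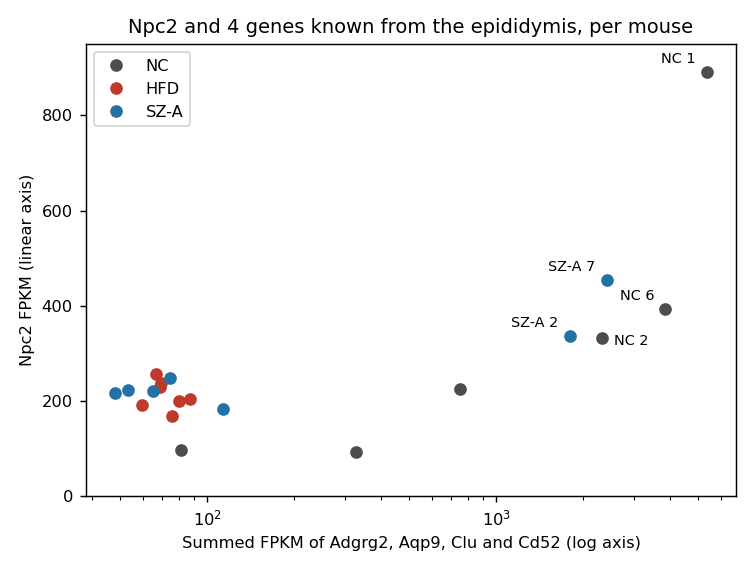
Npc2 FPKM (linear axis) against the summed FPKM of Adgrg2, Aqp9, Clu and Cd52 (log axis), 1 point per mouse. HFD mice sit between 168 and 256 FPKM of Npc2 at the low end of the sum, and the labelled NC 1, NC 2, NC 6, SZ-A 2 and SZ-A 7 lie at 333 FPKM or above at its high end.

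The second comparison, SZ-A against HFD, asks what the alkaloids change under continued high-fat feeding. Transcripts of Pltp, Soat1, Npc1, Abcg1 and Abca1 were lower in treated mice, and those of Nr1h3, Apoe, Npc2, Mylip and Scarb1 did not pass. Of the 10 members 5 were lower and 0 were higher, whereas 22.8% of 14695 genes tested passed in either direction, 13.3% lower and 9.47% higher. No member also had a log2 fold change beyond 1.5 in either direction, which 0.864% of all genes did. Median log2 fold changes were -0.43 over the members and 0.03 over all genes. Both comparisons use the same HFD mice, so values for the same gene in them are not independent of each other.

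Pltp ran from 109 through 166 to 372 FPKM in SZ-A, and only the highest of these mice, SZ-A 6, entered the HFD range of 364 to 525.5. The SZ-A mean was 42.7% of the HFD mean, and the log2 fold change was -1.32 (SE 0.22, adjusted p = 0.0014 by limma). The partly overlapping Ctsa was lower too (86.3 ± 47.2 FPKM in SZ-A, SD, n = 7; log2 fold change -1.11 ± 0.27 SE, adjusted p = 0.0094 by limma). Npc1 had 5.72, 6.85 and 13.2 FPKM as lowest, median and highest value in SZ-A. It was the only member without overlap, by a small margin, since the lowest HFD mouse had 13.3 FPKM. Its log2 fold change was -1.07 with an SE of 0.17 (adjusted p = 0.0011 by limma), and 6.08% of all genes tested had no overlap. Rmc1, whose exons on the opposite strand cover 4.52% of the Npc1 exon bases, did not pass (-0.09, SE 0.12).

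Soat1 had 6.26, 12.2 and 25.2 FPKM in SZ-A, with SZ-A 5 and SZ-A 6 (25.2 and 24.2 FPKM) inside the HFD range and the other 5 below it. The log2 fold change was -1.10 with an SE of 0.29 (adjusted p = 0.015 by limma), and the SZ-A mean was 48.4% of the HFD mean. Abcg1 had 18.4, 32.6 and 62.3 FPKM, and the same 2 mice overlapped HFD. It changed by -0.79 with an SE of 0.22 (adjusted p = 0.019 by limma). Abca1 had 15.8, 28.0 and 35.7 FPKM, with its highest SZ-A mouse above the lowest HFD mice, and changed by -0.70 with an SE of 0.19 (adjusted p = 0.019 by limma). These 5 calls held with any single mouse left out, in 14 of 14 fits, and without SZ-A 2 and SZ-A 5. Leaving out that pair was not planned in advance. SZ-A 7 was kept, although its sum of Adgrg2, Aqp9, Clu and Cd52 (2411 FPKM) was above that of SZ-A 2 (1797 FPKM). With all 3 groups fitted together, Abcg1 and Pltp were no longer past the threshold (adjusted p = 0.12 and 0.051 by limma).

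Nr1h3 in SZ-A had 17.6, 44.6 and 86.3 FPKM, so the treated mice surrounded the HFD range of 37.2 to 45.9, and the log2 fold change was 0.05 with an SE of 0.24. SZ-A 5, with 86.3 FPKM, had the highest Nr1h3 of all mice and also the highest mitochondrial share (11.6% of reads). Without it the value was -0.12. Apoe ran from 762 through 1899 to 2377 FPKM, with a log2 fold change of 0.10 (SE 0.27). The log2 fold change was 0.29 for Npc2 (SE 0.19), 0.10 for Mylip (SE 0.17) and -0.17 for Scarb1 (SE 0.13). The SE of 0.13 to 0.27 on these 5 genes leaves room for modest changes in either direction.

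The third comparison, SZ-A against NC, asks what remains of the difference from chow. One member, Pltp, was higher and 0 were lower, where 4.61% of 14718 genes tested passed, 4.15% of those tested being higher. The SZ-A mean of Pltp was 5.19 times the NC mean, with no overlap (log2 fold change 2.64, SE 0.55, adjusted p = 0.013 by limma), and 3.57% of all genes tested had no overlap, while 1.79% passed with a log2 fold change beyond 1.5. Soat1 was at 2.68 times the NC mean and just missed the threshold (1.18, SE 0.33, adjusted p = 0.058 by limma). The log2 fold change was 0.84 for Abcg1 (SE 0.41, adjusted p = 0.28), 0.17 for Npc1 (SE 0.23) and -0.08 for Abca1 (SE 0.26), none of them past the threshold. Without NC 1 and NC 6, Pltp stood at 1.98 (adjusted p = 0.0055 by limma), Soat1 passed as well (1.40, adjusted p = 0.047 by limma), and Abcg1 was at 0.27, Npc1 at -0.13 and Abca1 at -0.37.

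These are bulk samples, in which fewer cells of a type and less RNA per cell cannot be told apart. Macrophage markers moved with the 5 members that changed. In HFD against NC, 18 of the 19 macrophage markers in the table were higher and 0 lower, with a median log2 fold change of 3.49, and in SZ-A against HFD 18 of 19 were lower and 0 higher, with a median of -1.36. Their summed FPKM ranged over 106 to 1009.9 among NC mice (NC 6 lowest), 4989 to 13075 among HFD mice and 1929.9 to 6783 among SZ-A mice. Of the 20 macrophage markers listed, 19 are in the table, which holds only genes above 0 in all 20 mice. In NC, Adgre1 ran from 0.615 to 10.6 FPKM and Trem2 from 0.680 to 2.05. Of 10 markers of lipid-associated macrophages, 10 were higher in HFD than NC and 9 lower in SZ-A than HFD. Of 10 fibroblast and preadipocyte markers, 8 were higher and 1 lower with the diet, and 9 were lower with SZ-A. Of 12 adipocyte markers, 1 was higher and 1 lower with the diet and 0 passed in SZ-A against HFD. That list depended on a few mice, since 8 were lower with the diet without NC 1 and NC 6 and 8 were higher with SZ-A without SZ-A 2 and SZ-A 5. Without NC 1 and NC 6 the diet still gave 18 of 19 macrophage markers higher, with a median of 2.99, and 2 of 8 endothelial markers lower. Of 8 endothelial markers, 0 passed with the diet and 1 was higher with SZ-A. T cell markers had 1 of 8 higher with the diet and 1 of 8 lower with SZ-A, and B cell markers had 0 of 4 past the test with the diet and 2 of 4 lower with SZ-A. Of the 3 mesothelial markers in the table, 2 were lower with the diet and 0 passed with SZ-A. Over all genes tested, 41.1% passed with the diet and 22.8% with SZ-A, in either direction. The part of these cell types in the members' changes was not tested.

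The mean log2(FPKM + 1) of the 19 macrophage markers was 3.56 ± 0.82 for NC, 7.12 ± 0.35 for HFD and 5.76 ± 0.60 for SZ-A (mean ± SD, n = 6, 7 and 7). A gene whose level stayed constant would therefore stand lower against these markers in HFD than in NC by construction, so differences to the markers describe the markers as much as the members. Pltp stood above the markers by 1.28 ± 0.77, 1.68 ± 0.21 and 1.72 ± 0.74 in the log2 difference. Against the 10 markers of lipid-associated macrophages, its distance was 2.08 ± 1.29, 0.88 ± 0.43 and 1.13 ± 0.88, so the near-constant distance held for 1 list and not for the other. Every other member stood lower against the macrophage markers in HFD than in NC. Within SZ-A the mouse with the highest macrophage sum, SZ-A 5 (6783 FPKM), had the lowest Pltp (109 FPKM) and the highest mitochondrial share (11.6% of reads). The mouse with the next highest sum, SZ-A 6 (5330 FPKM), had the highest Pltp (372 FPKM).

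The wider sterol genes were read from 6 lists written down for this purpose. Without NC 1 and NC 6, the counts higher and lower with the diet were 3 and 1 for LXR partners and cofactors, 1 and 3 for other LXR targets, 7 and 4 for sterol esters and transport, 5 and 1 for receptors, 3 and 2 for extracellular remodelling and 2 and 2 for cholesterol synthesis. Over all genes tested without those mice, 3338 of 14687 were higher and 3348 lower with the diet. The counts that follow are with all mice. Over all genes tested, 41.1% then passed with the diet (21% higher, 20.1% lower). In SZ-A against HFD 22.8% passed (9.47% higher, 13.3% lower). Counts near these shares are not particular to a list. Among LXR, its partners and cofactors, 2 of 12 genes were higher and 1 lower in HFD than NC, and 0 higher and 2 lower in SZ-A than HFD. Nr1h2, the gene of the sister receptor LXRβ, had 27.3 ± 7.00, 26.0 ± 2.96 and 30.6 ± 10.8 FPKM across NC, HFD and SZ-A mice (mean ± SD, n = 6, 7 and 7) and did not pass in any comparison. Ncoa3, a nuclear receptor coactivator, rose with the diet by 0.86 and was lower by -0.63 with SZ-A (adjusted p = 1.4e-04 and 0.0020 by limma). Tbl1xr1, an exchange factor for corepressors, changed by 0.42 and -0.46 (adjusted p = 0.045 and 0.015), and Nrip1, a corepressor of nuclear receptors, fell by 0.83 with the diet.

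Other LXR target genes did not move as a block. Of 12 in the table, 2 were higher and 2 lower with the diet, and 2 were higher and 0 lower with SZ-A. Apoc1, an apolipoprotein gene beside Apoe, went opposite to Pltp, from 67.1 ± 20.2 FPKM (NC) to 15.8 ± 7.52 (HFD) and 57.3 ± 49.0 (SZ-A). Its log2 fold changes were -2.10 (adjusted p = 9.7e-05) and 1.64 (adjusted p = 0.0073 by limma). Mlxipl, which encodes the sugar-sensing factor ChREBP, changed by -0.83 and 1.02 (adjusted p = 0.029 and 0.014). Smpdl3a, a phosphodiesterase, rose by 1.08 with the diet and did not pass with SZ-A (-0.44, adjusted p = 0.062 by limma). Srebf1, the gene of the lipogenic factor SREBP1, did not pass (-0.52 and 0.61, adjusted p = 0.14 and 0.058 by limma). Abcg5, Abcg8, Apoc2, Apoc4 and Rxrg were not analysed here.

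Genes that hydrolyse sterol esters changed in the same directions as Soat1. Lipa, the lysosomal acid lipase that frees cholesterol from lipoprotein esters, went from 29.7 ± 15.0 FPKM (NC) to 450.1 ± 157 (HFD) and 155 ± 74.9 (SZ-A). The log2 fold changes were 4.14 and -1.58 (adjusted p = 2.5e-05 and 0.0019 by limma). Nceh1, a hydrolase of neutral cholesteryl esters, went from 4.44 ± 2.68 to 70.5 ± 19.2 and 27.5 ± 16.5 FPKM (3.80 and -1.47). Scarb2, a lysosomal membrane protein, rose by 1.28 and was lower by -0.55. Scp2, a sterol carrier of peroxisomes, went the other way, by -1.20 and 0.76 (adjusted p = 0.0044 and 0.0091 by limma). Of 19 genes of this list in the table, 5 were higher and 3 lower with the diet, and 1 was higher and 3 lower with SZ-A. Soat2 and Ch25h were not analysed here.

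Among lipoprotein and scavenger receptors, 4 of 13 were higher and 1 lower with the diet, and 4 were lower and 0 higher with SZ-A. Those lower with SZ-A included Msr1 and Stab1, scavenger receptors typical of macrophages, and Lrp1, a large endocytic receptor that also binds APOE. Msr1 rose by 3.17 and was lower by -1.59 (adjusted p = 2.8e-06 and 0.0026 by limma), Stab1 changed by 2.60 and -1.09, and Lrp1 by 2.78 and -1.08. Of the other scavenger receptors in this list, Cd163 (0.30 and -0.40), Marco (0.27 and 0.31) and Cd36 (1.82 and -0.51) did not pass in either comparison. Olr1 was not analysed here.

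For lipoprotein remodelling outside the cell, 3 of 9 genes were higher and 1 lower with the diet, and 1 was higher and 1 lower with SZ-A. Bmp1, a procollagen protease that also cleaves apolipoprotein A-I, changed by 1.71 and -0.70 (adjusted p = 6.9e-05 and 0.0025 by limma). Gpihbp1, which anchors lipoprotein lipase on capillaries, did not pass with the diet (-0.53) and rose by 1.19 with SZ-A (adjusted p = 0.025 by limma). Lipg, endothelial lipase, fell by 2.51 with the diet, and Pcolce2 rose by 1.81 and did not pass with SZ-A (-0.04). In NC Lipg was 11.6 ± 10.7 FPKM (SD), highest in NC 6 (25.1 FPKM), and in SZ-A it was 7.29 ± 14.5 FPKM, highest in SZ-A 2 (39.7 FPKM). Lcat, which esterifies cholesterol on HDL, had 0.938 ± 0.416, 0.737 ± 0.286 and 1.88 ± 2.85 FPKM (mean ± SD for NC, HFD and SZ-A mice), the last with 8.29 FPKM in SZ-A 5. Apoa1, Apoa2, Apob and Lipc were not analysed here.

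Cholesterol synthesis, run by SREBP2, showed no common direction. Of 15 genes, 2 were higher and 3 lower with the diet, and 1 was higher and 1 lower with SZ-A, with median log2 fold changes of -0.21 and under 0.01. Fdft1, squalene synthase, went from 28.4 ± 14.1 FPKM to 7.70 ± 2.41 and 16.8 ± 6.02 (log2 fold changes -1.68 and 1.004, adjusted p = 4.9e-04 and 0.010 by limma). Dhcr7, the last reductase of the pathway, went opposite, by 1.15 and -0.56 (adjusted p = 0.0019 and 0.0013 by limma). Both genes were highest among NC mice in NC 6, with 52.2 FPKM of Fdft1 and 5.31 FPKM of Dhcr7. The changes of the named sterol genes are not given without that mouse.

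**Figure D4:**
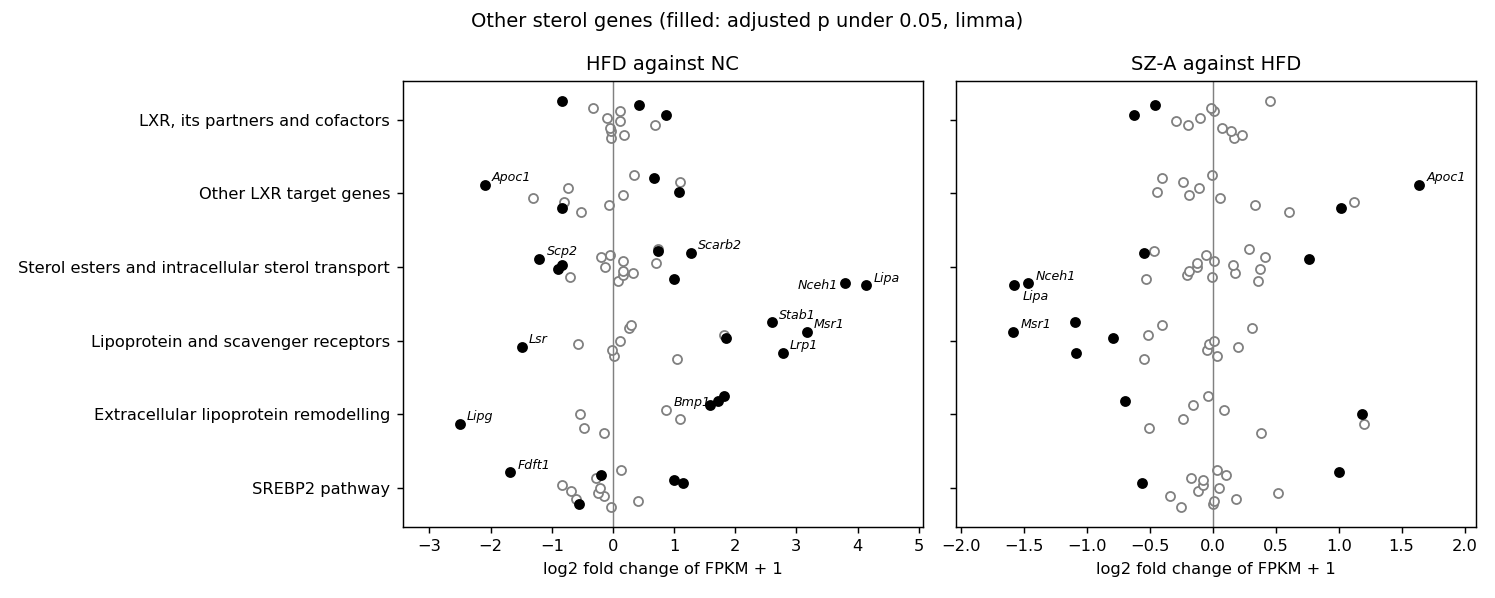
Log2 fold change of FPKM + 1 for the tested genes of 6 sterol lists in HFD against NC and SZ-A against HFD, 1 circle per gene, filled where the adjusted p was under 0.05 by limma. Lipa and Nceh1 stand out to the right with the diet (4.14 and 3.80) and to the left with SZ-A (-1.58 and -1.47), and Apoc1 does the opposite (-2.10 and 1.64).

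Within groups, each member had its own nearest neighbours among the 12450 genes that averaged 1 FPKM or more. Likeness was the Pearson correlation of log2(FPKM + 1) over 20 mice after the mean of each group was removed, and mice in it share library, depth and tissue makeup. Pltp was most like Mmp2 (0.95), Col3a1 (0.95) and Vim (0.94). Npc1 was most like Scpep1 (0.93), Igf2r (0.92) and Kcnk6 (0.91). Soat1 was most like Cybc1 (0.94), Mfsd11 (0.90) and Cdk6 (0.90). Abca1 was most like Rev1 (0.95), Diaph2 and Hook3 (both 0.93), and Abcg1 was most like Trim47, Slc36a1 (both 0.95) and Parvb (0.94). Nr1h3 was closest to Trafd1 (0.98), Slc12a4 and Elac1 (both 0.97), Apoe to Selenow (0.96), H2-D1 and Lgals1 (both 0.94), and Mylip to Adipor2 (0.97), Bmp6 and She (both 0.96). Npc2 was closest to Mtch1 (0.97), Fjx1 (0.96) and Toe1 (0.95), and Scarb1 had the weakest neighbours, Stk40 (0.83), Arid4a and Sema7a (both 0.81). These correlations are descriptions of 20 mice, each the highest of many. NC 6 was among the 20, and it was the lowest NC mouse for Pltp (2.79 FPKM), Nr1h3 (3.77 FPKM) and Apoe (273 FPKM). The correlations were not computed without NC 6, so how far they rest on that mouse is not known.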

How the data were processed

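The authors extracted total RNA from eWAT with TRIzol, purified poly(A) RNA, sequenced paired-end reads, aligned them with HISAT2 to the GRCm38 genome and tested groups by DESeq2, which was not used here. The submitters' processing notes name featureCounts 1.5.0-p3. The deposited values are FPKM, 1 column per mouse, for 14776 genes that are each above 0 in all 20 mice, so a filter had been applied whose rule is not given in the sources used here. The annotation release is not given either. Symbols came from the gene name table for 14765 genes, and GENCODE M21 exon lengths gave whole reads, within 0.01 reads, for at least 95.9% of the values under 1000 reads in each mouse. The recovered reads were 0.92 (NC 2) to 1.01 (NC 1) times the library size implied by the scaling in NC. In HFD they were 0.99 (HFD 7) to 1.12 (HFD 1) times it. A ratio above 1 means that this size was not the plain total of reads.

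Groups followed the labels (6 NC, 7 HFD, 7 SZ-A). The labels do not say more about the mice than that they are separate samples, so p-values measure the spread between these samples. Each pair of groups was fitted with limma 3.58.1 (R 4.3.3; lmFit, eBayes with trend) on log2(FPKM + 1), keeping genes that averaged 0.1 FPKM or more, with Benjamini-Hochberg adjustment over all genes tested. A fold change on this scale understates the change of low genes. On simulated data for SZ-A against HFD with 14675 genes, 200 of them shifted by 2 on the log2 scale, the steps called 200 of the 200 and 8 unchanged genes. The shifted genes were drawn from those with a mean log2 value above 2 and an SD under 2 times the median SD. Their noise was normal and independent. The largest change of a member there was smaller (Pltp, -1.32), so this does not measure how well changes of the members' size are found. Promoter windows came from RefSeq (GRCm38.p6). Tables and plots used Python 3.11.15, pandas 2.3.3, NumPy 2.4.6 and matplotlib 3.10.9.

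Named besides the members were, from each sterol list, the 4 genes with the largest change past the threshold in SZ-A against HFD and the 2 with the largest in HFD against NC, and Nr1h2, Soat2, Srebf1 and Lcat. Some genes that this rule selects are not reported here. The 3 most alike genes were named for each member. Ctsa and Rmc1 were named after their values were seen, for their overlap with members. The members and lists were chosen with earlier results of these data known. Alternatives were a pseudocount of 0.1, no filter or a minimum mean of 1 FPKM, quantile normalization, median-ratio scaling, a fit to all 3 groups, weights for array quality, voom with recovered reads, a block for the replicate number, and leaving out mice. A comparison of the proteins of Nr1h3 and Nr1h2 was not made.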

Additional observations from a re-analysis of the deposited data

Results flagged for a closer look

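Of 30 sets of values (10 members in 3 groups), 3 held a mouse far from the rest of its group by Dixon's test, where chance gives about 1 in 20. Abcg1 in NC 3 was 57.7 FPKM, and the next NC mouse had 25.4. Npc1 in SZ-A 6 was 13.2 FPKM, with 7.31 next, and Pltp in SZ-A 6 was 372 FPKM, with 217 next. SZ-A 6 also had the highest Abcg1 (62.3 FPKM) and Adgre1 (122 FPKM) of the SZ-A mice and the second highest Soat1 (24.2 FPKM). Its macrophage markers summed to 5330 FPKM, with a median of 2417 over the SZ-A mice. Without SZ-A 6 the mean of Pltp in SZ-A was 161 ± 39.1 FPKM (SD, n = 6), in place of 191 ± 87.4 (n = 7).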

How the results depend on the processing

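Of 710 values of members under an alternative, 656 kept their direction and side of the threshold, 16 were no longer past it, 5 newly passed and 33 turned direction, all 33 at an adjusted p of 0.05 or above and at most 0.38 in size. The cause of these changes was not tested. In HFD against NC, Apoe was -0.21 with array quality weights and -0.25 without NC 1 and NC 6, where Npc2 was 0.38 and 1 member was lower. Leaving out 1 mouse gave -0.21 to 0.41 for Apoe, -0.52 to 0.13 for Npc2, -0.034 to 0.30 for Scarb1 and, in SZ-A against HFD, -0.12 to 0.25 for Nr1h3. Quantile normalization gave Apoe -0.080 in SZ-A against HFD. There, 3 members were lower with all 3 groups in the fit, and the count over all genes, 3349, was 2089 with all 3 groups and 6403 with array quality weights.

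In SZ-A against NC, 2 members were higher with all 3 groups, with array quality weights and without NC 1 and NC 6, and 1 to 2 when 1 mouse was left out (2 without SZ-A 4). Over all genes the count of 678 was 1527 with all 3 groups, 2639 with array quality weights and 423 to 860 when 1 mouse was left out; it was 441 without NC 1, 423 without NC 2 and 425 without SZ-A 6. Array quality weights turned Abca1 (0.037), Npc1 (-0.018), Npc2 (-0.037) and Scarb1 (-0.016), and quantile normalization turned Scarb1 (-0.037). Without NC 1 and NC 6, Apoe was -0.15, Npc1 -0.13 and Scarb1 -0.15, and without SZ-A 2 and SZ-A 5, Mylip was 0.11. Leaving out 1 mouse gave -0.21 to 0.069 for Abca1, -0.10 to 0.55 for Apoe, -0.28 to 0.053 for Mylip, -0.24 to 0.41 for Npc2 and -0.21 to 0.12 for Scarb1.

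Mice that share a replicate number did not, as a rule, deviate together. Their correlations ran from -0.41 to 0.58, 7 of 19 pairs were over 0.1, and 4 of 19 matched their own number best. The highest was that of SZ-A 4 with NC 4. The labels do not say what the number stands for, and this check cannot exclude a link for some numbers. With the replicate number as a block, members called were 4 in HFD against NC (without Abca1), 5 in SZ-A against HFD and 0 in SZ-A against NC, where 167 genes were called in all, Pltp had an adjusted p of 0.099 by limma, Abca1 was 0.022 and Npc2 -0.091. The fit with an epididymis score as covariate was not run, since 0 of its 15 markers could be used. Depth was not limiting for the members, each with at least 104 reads in every mouse.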

Other observations

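SZ-A 5 combined extremes in both directions. Its mitochondrial share of reads, 11.6%, was the highest of all mice, with 5.11% next in SZ-A, and its 15305451 reads were the fewest in its group. The part of these in its values was not tested. It had the highest Soat1 (25.2 FPKM), Nr1h3 (86.3 FPKM), Apoc1 (166 FPKM), Lcat (8.29 FPKM) and Trem2 (136 FPKM) of the SZ-A mice and the lowest Pltp (109 FPKM), Abca1 (15.8 FPKM), Mylip (18.8 FPKM) and Npc2 (183 FPKM). Its macrophage markers had the highest sum in SZ-A (6783 FPKM), and its fibroblast and preadipocyte markers the lowest (394 FPKM).

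Within HFD, HFD 1 and HFD 6 stood at opposite ends for several members. HFD 1 had the highest Pltp (525.5 FPKM), Abcg1 (77.9 FPKM) and Soat1 (44.8 FPKM), and HFD 6 the lowest Pltp (364 FPKM), Abcg1 (49.3 FPKM), Soat1 (19.7 FPKM) and Npc1 (13.3 FPKM). The summed macrophage markers were also highest in HFD 1 (13075 FPKM) and lowest in HFD 6 (4989 FPKM), and the adipocyte markers the reverse (1423 and 6090.0 FPKM). Not all members ran this way. HFD 1 had the lowest Mylip (18.1 FPKM), Scarb1 (13.6 FPKM) and Npc2 (168 FPKM), and HFD 6 the highest Mylip (30.7 FPKM). Abca1 was highest in HFD 2 (60.1 FPKM) and lowest in HFD 5 (31.5 FPKM). The part of cell types in these values was not tested.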
